A study of Homo sapiens with 12 samples.

Results

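The DEAD and DEAH box helicase genes are the protein-coding genes whose symbol begins with DDX or DHX followed by a digit. This rule on names found 55 of 58735 genes in the count table, 39 with a DDX and 16 with a DHX symbol. The RNA came from HEK293T, an embryonic kidney cell line labelled as wild type, in 4 groups of 3 independent replicates. Cells received the vehicle dimethyl sulfoxide (DMSO), the clickable electrophilic purine AHL-Pu-1 (CEP, a probe that binds cysteines covalently; 25 µM for 1 h), the photoreactive nucleoside 4-thiouridine (4SU; 100 µM for 16 h), or both (CEP+4SU). The CEP dose is the one in the series design, while the sample protocol writes the same figure in mM. The protocol shared by the samples includes ultraviolet crosslinking after the 4SU step, and which of the groups without 4SU were irradiated is not given in the sources used here. Only RNA was measured in these libraries, whereas the study's probe labels proteins.

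DEAD and DEAH box proteins use ATP to open short RNA duplexes or to strip proteins from RNA. They carry a common helicase core of paired RecA-like domains, and the family is named after the one-letter residues of motif II, a stretch that binds the magnesium and phosphates of ATP. Members act at nearly every step of an RNA's life, from ribosome assembly and splicing to export, translation, decay and the sensing of viral RNA. The study followed the proteins of DDX3X, DDX17 and DDX19B for RNA binding, which is why their transcripts are given here alongside those of the whole family. In the sites it showed, DDX17 and DDX19B were sensitive to RNA crosslinking, while the DDX3X site was the insensitive contrast.

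Motif II of the members is described here by its coding bases. The motif was read in a single GENCODE 29 coding transcript of each gene. It was chosen by its APPRIS rank as principal isoform, then by a consensus coding sequence (CCDS) tag, then by coding length. In these transcripts 54 of 55 members had a single in-frame match to 4 codons. By the standard code these read DE, then A, C, I, S or V, then D or H, behind a pair of codons for A, C, F, I, L, M, T or V. The match read DEAD in 30 members, DEAH in 9, DEVH in 6, DECD, DECH, DEIH and DEVD in 2 each and DESD in 1, and none was found in DHX32. The 30 bases around the motif are printed for the members followed by the study and for the paralogs DDX5 and DDX19A. They are also printed for DDX28, for some of the other members with low p-values, and for DDX58. The 12 bases of the motif are in capitals, 5′ to 3′ on the coding strand.
DDX28: ttggtgttgGATGAGGCAGACacactgctg
DDX3X: ttggtgttaGATGAAGCTGATcggatgttg
DDX17: cttgtattgGACGAAGCTGACagaatgctt
DDX5: cttgtccttGATGAAGCAGATagaatgctt
DDX19A: tttgttctgGATGAGGCTGATgtcatgata
DDX19B: tttgttctgGATGAGGCTGATgtcatgata
DDX52: cttgtagtaGACGAATCAGATaaactgttt
DDX21: gttgtcctgGATGAAGTGGACcagatgttg
DHX9: gtaattgtaGATGAAATACATgaaagagat
DHX36: atcgtacttGATGAAATCCATgaaagaaat
DHX29: gttattgtaGATGAGGTTCATgaaagaagt
DHX58: atcgtggtgGATGAGTGCCACcacacgcac
DDX58: atgatatttGATGAATGCCACaacactagt

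In these lines DDX19A and DDX19B carried the same 30 bases. In GRCh38 the capitals of DDX28 lie at chr16:68022336-68022347 on the minus strand, in the only exon of its transcript. Those of DDX3X lie at chrX:41345193-41345204 on the plus strand in coding exon sequence of exon 12, those of DDX17 at chr22:38494943-38494954 on the minus strand in exon 7, and those of DDX19B at chr16:70329408-70329419 on the plus strand in exon 8. In DHX29 the motif is split over exons 12 and 13.

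Of the 55 members, 49 had enough reads to be tested. The 6 that did not were the 4 germline members DDX4, DDX25, DDX43 and DDX53, the interferon-induced DDX60L, and DDX3Y, the Y-linked paralog of DDX3X. DDX3Y and DDX43 had 0 counts in every library. In any library, the untested members other than DDX3Y had from 0 to 13 counts. Together the members took 0.859% to 0.942% of the counts of a library.

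Library depth was 16569114 to 24644734 counts on genes. CEP replicate 2, with 22230 genes above 0, and CEP+4SU replicate 2, with 22627, stood apart from the other 10 libraries, which had 24376 to 25869. Some results that rest on these libraries are therefore also given without them, but not those of every member named. All 7 markers of HEK293T cells were at 1 CPM (counts per 1000000 counts of a library) or more in every library, with a sum of 473 to 545 CPM. Of 13 markers of melanoma, T, liver and red blood cells, 3 were at 0 throughout and 3 (PMEL, DCT and MITF) were above 1 CPM in every library, and the sum of the 13 was 29.9 to 31.1 CPM in DMSO and 31.6 to 40.8 CPM in CEP, 33.3 to 34.3 CPM in 4SU and 31.7 to 34.0 CPM in CEP+4SU.

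In the DMSO libraries most tested helicase genes had a higher RNA level than the median tested gene. The levels in this paragraph are per length, in fragments per kilobase scaled to library depth (FPKM), as means ± SD of the 3 DMSO libraries. The median of the tested members was 18.2 FPKM, which was higher than 83.5% of all tested genes, whose median was 3.72 FPKM. 37 of 49 members were at 10 FPKM or more and 6 at 50 or more. The highest level was that of DDX21, a nucleolar helicase of ribosomal RNA synthesis and processing, at 136 ± 4.49 FPKM (137, 131 and 140 in the 3 libraries). It was followed by DHX9, a helicase of double-stranded RNA and DNA-RNA hybrids, at 117 ± 3.99 FPKM, and by the transcription and splicing cofactors DDX5 at 108 ± 1.77 FPKM and DDX17 at 84.3 ± 5.40 FPKM. The fifth was DDX1, a subunit of the tRNA ligase complex, at 70.4 ± 2.30 FPKM. Each of these 5 was above the next by more than their SDs.

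The lower end was held by the sensors of foreign RNA. DDX58, which encodes RIG-I, was at 1.39 ± 0.129 FPKM, DHX58, which encodes LGP2, at 0.432 ± 0.0330 FPKM and DDX60 at 0.409 ± 0.0872 FPKM. The last pair did not differ beyond their spread. Next above them came DHX35 at 4.17 ± 0.233 FPKM, a spliceosomal helicase. The lowest value of all belonged to DDX47, a nucleolar helicase of ribosome assembly, which was listed at 0.152 ± 0.0565 FPKM.

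The value of DDX47 comes with a property of its locus. In GENCODE 29, 99.7% of the bases of its longest coding transcript also lie in exons of APOLD1 on the same strand. The translation initiation helicase EIF4A1, a DEAD box gene outside the symbol rule, had 100.0% of its transcript in exons of other genes and was listed at 1.56 ± 0.340 FPKM, against 31.3 ± 0.822 FPKM for its paralog EIF4A2 and 56.5 ± 3.16 FPKM for the exon junction helicase EIF4A3. DDX39B, an mRNA export helicase, had 97.5% of its transcript in exons of a readthrough gene and was at 13.5 ± 1.08 FPKM, while its paralog DDX39A was at 42.5 ± 1.68 FPKM. DDX19A and DDX19B, which release export factors from mRNA at the nuclear pore, had 62.6% and 33.5% in exons of other genes and were at 4.66 ± 0.385 and 4.51 ± 0.0349 FPKM. How reads in shared exons were counted is not given in the sources used here, so the levels of these genes are uncertain, and the part of the shared bases in them was not tested.

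**Figure D1:**
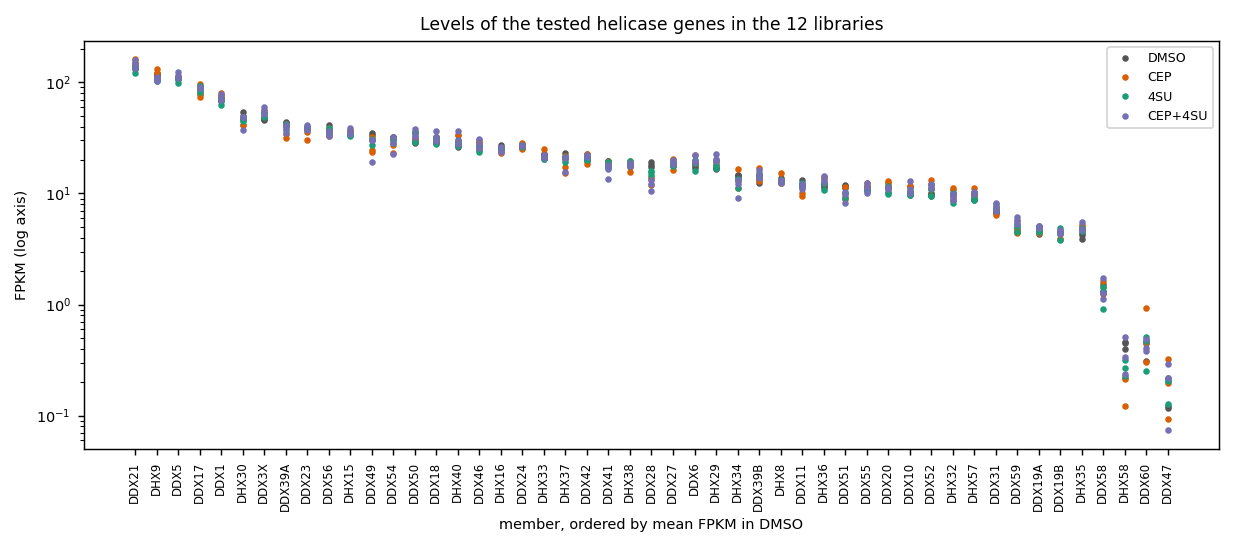
FPKM on a log axis of the 49 tested members, ordered by their mean in DMSO, with a point for each of the 12 libraries coloured by group. Levels run from DDX21 at 136 FPKM in DMSO down to DDX47 at 0.152, and the differences between genes are far larger than those between groups of 1 gene.

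The first comparison asks what CEP alone did to the transcripts. No member passed the threshold of an adjusted p of 0.05 in CEP against DMSO, where 0.0564% of all tested genes did. By DESeq2, 2 members, DDX28 and DDX52, passed, where 253 genes or 2.63% of those given an adjusted p did. At an unadjusted p under 0.05, 10 members were higher and 8 lower, which is 20.4% and 16.3% of the 49, against 9.79% and 8.77% of all tested genes. The median SE of a log2 fold change was 0.088 for members and 0.14 for all genes. The changes were small: 10 of 49 members (20.4%) differed by over 0.25 on the log2 scale in either direction, against 36.0% of all tested genes. The 14 members whose CEP libraries were all above DMSO and the 6 whose libraries were all below compare with 13.5% and 10.1% of all genes. Without the 2 libraries that stood apart, 21 members were higher and 28 lower, where with them 30 were higher and 19 lower, and the median log2 fold change of the members went from 0.05 to -0.02.

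The lowest p in this comparison was that of DDX28, which encodes a mitochondrial DEAD box protein needed for assembly of the large mitochondrial ribosomal subunit. It had 42.0, 37.7 and 39.5 CPM in DMSO and 31.1, 29.6 and 25.9 CPM in CEP. The groups did not overlap, and the log2 fold change was -0.46 (SE 0.10, adjusted p = 0.172 by edgeR). DDX52, which acts on ribosomal RNA precursors, had 95.5, 91.2 and 97.3 CPM in DMSO and 107, 128 and 117 CPM in CEP, a log2 fold change of 0.31 (SE 0.085, adjusted p = 0.173 by edgeR). Here the CEP libraries were all above DMSO, with replicate 2 the highest. Without the 2 libraries that stood apart, the log2 fold change of DDX52 was 0.24.

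DDX11, a DNA helicase of sister chromatid cohesion, had 99.6, 111 and 103 CPM in DMSO and 97.4, 85.1 and 79.6 CPM in CEP. The log2 fold change was -0.26 (SE 0.085, adjusted p = 0.182 by edgeR), all CEP libraries being below DMSO. Its pseudogene DDX12P had 561 to 1093 counts a library, so how reads were split between them is uncertain. DHX58 had 1.76, 1.53 and 1.74 CPM in DMSO and 0.479, 0.825 and 0.854 CPM in CEP, which rests on 31 to 42 counts a library in DMSO and 9 to 18 in CEP. The groups did not overlap and the log2 fold change was -1.21 (SE 0.40, adjusted p = 0.183 by edgeR).

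The second comparison asks the same of 4SU alone. No member passed in 4SU against DMSO, by edgeR or by DESeq2, and by edgeR 0.00564% of all tested genes did. At an unadjusted p under 0.05, none was higher and 3 were lower, against 2.78% and 3.72% of all genes. In 4 members the 4SU libraries were all above DMSO and in 7 all below, against 7.58% and 10.3% of all genes. The 3 lower members were DDX51, DHX9 and DDX28. With scaling to the library total alone, 27 members were higher and 22 lower, where TMM scaling gave 19 and 30.

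DDX51, a helicase of ribosomal RNA maturation, had 75.6, 71.3 and 75.0 CPM in DMSO and 64.8, 64.0 and 57.8 CPM in 4SU, with no overlap. Its log2 fold change was -0.25 (SE 0.10, adjusted p = 0.744 by edgeR). DHX9 went from 692, 647 and 668 CPM to 585, 604 and 598 CPM, also without overlap, at -0.17 (SE 0.070, adjusted p = 0.744 by edgeR). Over both levels of CEP, where 0.558% of all genes passed, the log2 fold change of DHX9 under 4SU was -0.17 (SE 0.049, adjusted p = 0.128 by edgeR), and no member passed. At an unadjusted p under 0.05, 1 member was higher and 5 lower there, against 5.66% and 6.95% of all genes, and in none did the 6 libraries with 4SU lie wholly above or below the 6 without, as they did in 0.491% and 0.863% of all genes. The lowest p-values after those of DHX9 and DDX28 were those of DHX34 at -0.22, DDX41 at -0.16 and DHX29 at 0.13. DHX9 passed there at adjusted p = 0.0218 once the GC trend was removed, where 3.78% of all genes passed, and at 0.0481 by DESeq2, where 336 genes did.

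The third comparison combined both treatments. DDX28 fell in CEP+4SU against DMSO. It was the only member of 49 tested past the threshold in the reported edgeR fit, where 1.64% of all genes passed. Its CEP+4SU libraries had 28.8, 23.2 and 26.7 CPM and its 4SU libraries 32.1, 34.6 and 34.2 CPM. Every library with CEP was below every library without it, and in DMSO the 3 libraries were the highest of the 12. The log2 fold change was -0.60 (SE 0.10, adjusted p = 0.0153 by edgeR), and the mean went from 39.7 ± 2.15 to 26.3 ± 2.81 CPM (SD, n = 3).

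DDX28 also fell with CEP averaged over 4SU, by 0.41 on the log2 scale (SE 0.074, adjusted p = 0.0171 by edgeR), where 0.276% of all genes passed. The interaction of CEP with 4SU passed in none of the genes tested (0% of 17729 by edgeR, and 0 by DESeq2). At an unadjusted p under 0.05 it was met by 1 member, DHX58, and by 467 genes or 2.63% of all. In order of p, the next members were DDX11 at 0.22, DDX23 at 0.18, DDX19B at 0.22 and DHX35 at -0.20. DDX60 at -0.39 and DDX47 at -0.31 were further from 0, with higher p. DDX28 is a single-exon gene at chr16:68021274-68023442 in GRCh38, and 22.5% of its exonic bases lie in exons of DUS2 on the opposite strand. DUS2, a tRNA dihydrouridine synthase, had a log2 fold change of 0.18 (SE 0.12, adjusted p = 0.371 by edgeR) in CEP+4SU against DMSO. Whether the counting used strand is not given in the sources used here, and the part of the overlap in the result was not tested.

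The decrease of DDX28 was -0.52 (adjusted p = 0.0157 by edgeR) without the 2 libraries that stood apart, and -0.43 (adjusted p = 0.0155) with the GC trend removed. It lost the call when any 1 DMSO library, CEP+4SU replicate 2 or CEP+4SU replicate 3 was left out, with adjusted p from 0.0521 to 0.0989 and a log2 fold change from -0.63 to -0.52. In the average over 4SU the call was lost with the GC trend removed (-0.28, adjusted p = 0.0560), with the length trend removed (-0.34, adjusted p = 0.0529), and without DMSO replicate 1 or 3, CEP replicate 3 or 4SU replicate 3, with adjusted p from 0.0563 to 0.0849.

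**Figure D2:**
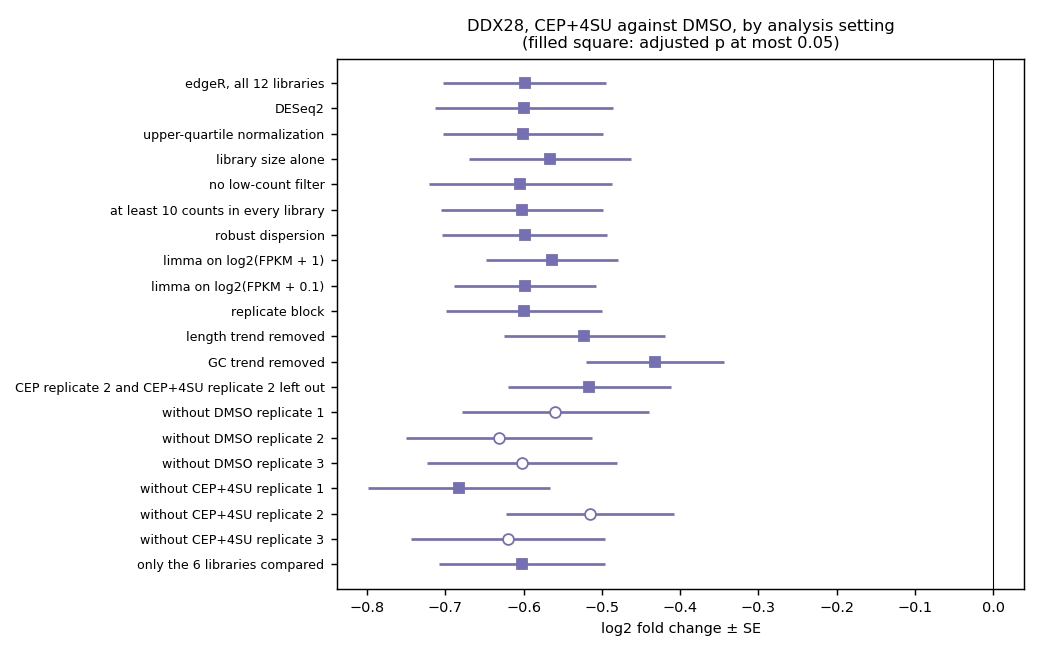
Log2 fold change of DDX28 in CEP+4SU against DMSO, with its SE as a bar, for the reported fit on top and 19 alternatives below it. All values lie between -0.68 and -0.43, and 14 of the 19 alternatives are filled squares, past an adjusted p of 0.05.

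The other mitochondrial member, DHX30, which binds transcripts in mitochondrial RNA granules, had a log2 fold change of -0.17 in the same comparison and did not pass. For the members as a whole, 10 were higher and 5 lower at an unadjusted p under 0.05, which is 20.4% and 10.2% against 10.5% and 10.8% of all genes. The CEP+4SU libraries were all above DMSO in 11 members and all below in 6, against 14.1% and 14.6% of all genes. Without the 2 libraries that stood apart, 8 members (16.3%) had an unadjusted p under 0.05 in either direction, against 14.9% of all genes in the same fit.

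DHX29, which helps the scanning ribosome through structured leaders of mRNA, was closest to the threshold after DDX28. It had 80.6, 78.8 and 80.6 CPM in DMSO and 93.9, 108 and 98.2 CPM in CEP+4SU, with no overlap. The log2 fold change was 0.32 (SE 0.083, adjusted p = 0.0534 by edgeR). With CEP averaged over 4SU its log2 fold change was 0.19 (SE 0.059, adjusted p = 0.0840 by edgeR). In CEP+4SU against DMSO it passed in 9 of the 19 alternatives, with adjusted p from 0.00839 to 0.253 over them.

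DDX3X, an X-linked helicase of translation initiation, had 741, 735 and 778 CPM in DMSO. It had 841, 897 and 847 CPM in CEP, 787, 845 and 845 CPM in 4SU and 823, 955 and 882 CPM in CEP+4SU, so that each treated group lay above DMSO without overlap. These 3 comparisons share the DMSO libraries. The log2 fold changes were 0.20 (SE 0.068, adjusted p = 0.190 by edgeR), 0.14 (SE 0.068, adjusted p = 0.776) and 0.24 (SE 0.068, adjusted p = 0.0716) in this order, and none passed. In CEP+4SU it passed in 4 of 19 alternatives, and with the GC trend removed the difference was 0.09. Without the 2 libraries that stood apart, its value in CEP was 0.17 (adjusted p = 0.203 by edgeR).

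DDX17, a coactivator of transcription and splicing, was followed by the study as well. It had 789, 861 and 901 CPM in DMSO, 815, 973 and 745 CPM in CEP, 821, 931 and 927 CPM in 4SU and 893, 911 and 901 CPM in CEP+4SU. The groups overlapped in each comparison. The log2 fold changes of -0.01, 0.07 and 0.08 had an SE of 0.086 each, and plus or minus 2 SE the values run from -0.18 to 0.16 for CEP, from -0.10 to 0.24 for 4SU and from -0.09 to 0.26 for both. Its paralog DDX5, at 792, 803 and 823 CPM in DMSO and 824, 923 and 855 CPM in CEP+4SU, had a log2 fold change of 0.11 (SE 0.065, adjusted p = 0.361 by edgeR) there.

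DDX19B had 20.3, 20.5 and 20.8 CPM in DMSO, 17.8, 17.8 and 19.6 CPM in CEP, 22.0, 17.2 and 19.8 CPM in 4SU and 21.2, 20.8 and 19.5 CPM in CEP+4SU. The CEP libraries were all below DMSO, while the other groups overlapped with it. The log2 fold change in CEP was -0.16 (SE 0.11, adjusted p = 0.445 by edgeR), and plus or minus 2 SE it runs from -0.38 to 0.07. In CEP+4SU it was -0.0023, with 2 SE on either side reaching from -0.22 to 0.22. DDX19A was at -0.01, 0.01 and 0.10 in the same order of groups as above, with an SE of 0.092 each.

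**Figure D3:**
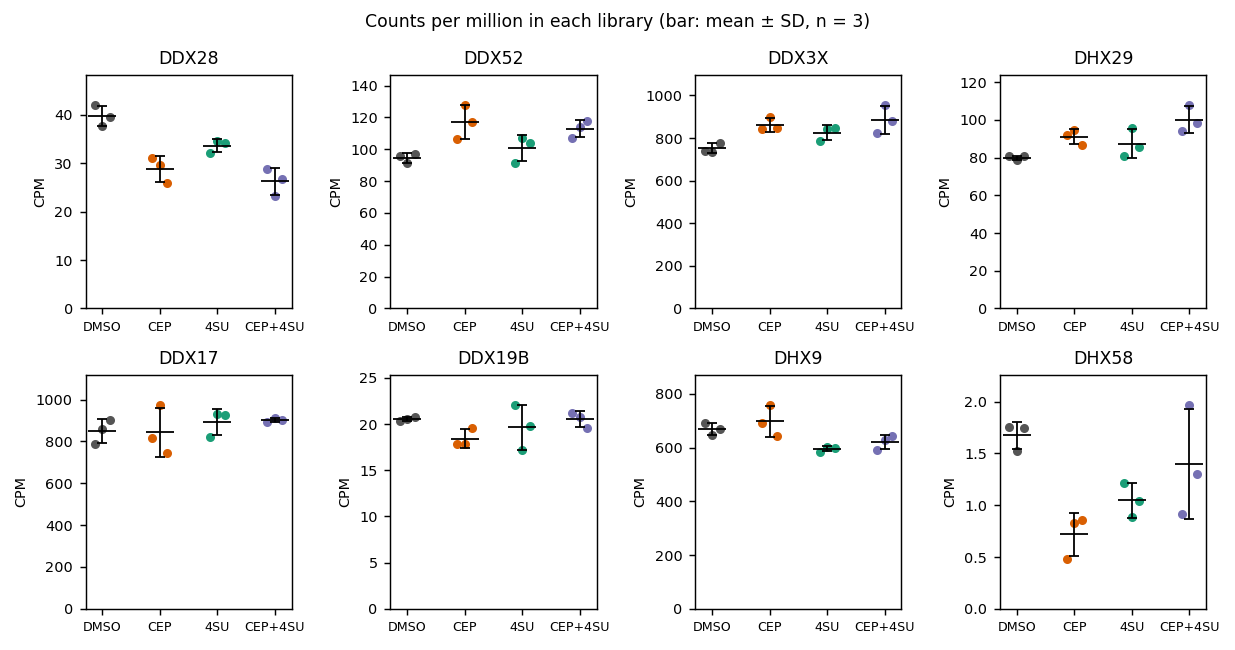
CPM in each library of 8 members by group, with the mean and SD (n = 3) as black bars and axes that start at 0. DDX28 falls from 39.7 CPM in DMSO to 26.3 in CEP+4SU, DDX3X lies above DMSO in every treated group, and DDX17 and DDX19B overlap between DMSO and CEP+4SU.

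By role, the largest group was that of ribosome biogenesis, whose members process ribosomal RNA precursors in the nucleolus. Of its 16 members none passed in any comparison of the reported edgeR fit. By DESeq2, DDX52 passed in CEP and in CEP+4SU against DMSO, where 2.63% and 10.6% of the genes given an adjusted p did. With CEP averaged over 4SU, DDX10, DDX21 and DDX52 passed by DESeq2, where 15.6% of those genes did. With CEP averaged over 4SU the median log2 fold change was 0.05, from -0.22 for DDX49 to 0.27 for DDX47, and 4 were higher and 3 lower at an unadjusted p under 0.05. DDX21 was at 0.17 (SE 0.051, adjusted p = 0.0800 by edgeR) and DDX52 at 0.23 (SE 0.060, adjusted p = 0.0661). Over all members 14 were higher and 6 lower by this measure, which is 28.6% and 12.2%, against 13.5% and 10.8% of all genes.

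The 10 splicing members include DHX8, DHX15, DHX16 and DHX38, which drive steps of the spliceosome cycle, and DDX20, a partner of the SMN complex that assembles spliceosomal particles. Their median with CEP averaged over 4SU was 0.03, and none passed in any comparison of the reported edgeR fit. DDX41 had the lowest value in CEP+4SU against DMSO, at -0.25, and DHX35 the highest, at 0.27. DHX35 had 20.99, 21.7 and 19.5 CPM in DMSO and 23.5, 23.8 and 27.6 CPM in CEP+4SU, without overlap, and did not pass (adjusted p = 0.145 by edgeR). In 4SU alone it had 23.7, 22.9 and 24.2 CPM, again above DMSO, at 0.19 (SE 0.10, adjusted p = 0.790 by edgeR).

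The 5 tested members that act on mRNA translation, storage and decay were DDX3X, DHX29, the P-body helicase DDX6, the G-quadruplex helicase DHX36 and the nonsense-mediated decay factor DHX34. In CEP+4SU against DMSO, 4 of them were higher at an unadjusted p under 0.05, as were 10.5% of all tested genes, and DHX34 was lower, as were 10.8%. The median log2 fold change of the 5 was 0.21. The 4 higher members had a GC content of 38.4% to 41.7%, and DHX34 had 62.9%. With the GC trend removed, the values were 0.09 for DDX3X, 0.16 for DHX29, 0.06 for DDX6, 0.004 for DHX36 and -0.06 for DHX34. Their adjusted p was then 0.253 or more by edgeR. DHX36 was the only member whose 6 libraries with CEP all lay above the 6 without. It had 120, 125 and 127 CPM in DMSO and 113, 133 and 132 CPM in 4SU, against 134, 151 and 147 CPM in CEP and 134, 154 and 140 CPM in CEP+4SU. The log2 fold change averaged over 4SU was 0.20 (SE 0.059, adjusted p = 0.0798 by edgeR). DDX28 was the only member with all 6 CEP libraries below, and of all genes tested 1.21% lay above and 0.513% below in this way.

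The 4 mRNA export members ran from -0.15 for DDX39A to 0.15 for DDX39B in CEP+4SU against DMSO. The 4 cofactors of transcription and RNA processing ran from -0.11 for DHX9 to 0.11 for DDX5. The 4 members of less defined function ran from -0.03 for DHX32 to 0.31 for DDX59, which had 22.0, 20.3 and 20.8 CPM in DMSO and 24.02, 27.9 and 26.0 CPM in CEP+4SU without overlap (adjusted p = 0.139 by edgeR). None of these 12 passed in any comparison of the reported edgeR fit. By DESeq2, DHX40 passed with CEP averaged over 4SU, where 15.6% of the genes given an adjusted p did. DHX9 passed by DESeq2 with 4SU averaged over CEP, as given above.

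By the letters of motif II, the 25 tested DEAD members had a median log2 fold change of 0.06 in CEP+4SU against DMSO, the 9 DEAH members -0.03 and the 15 with other letters 0.06. DDX28 carries DEAD. The 14 members for which the study lists a cysteine sensitive to RNA had a median of 0.10. Beside it, the median was 0.04 for all 49 members and 0.00 for all genes tested. These medians are as counted, with no GC trend removed, and the part of GC content in them was not tested. None of the 14 passed in the reported edgeR fit.

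**Figure D4:**
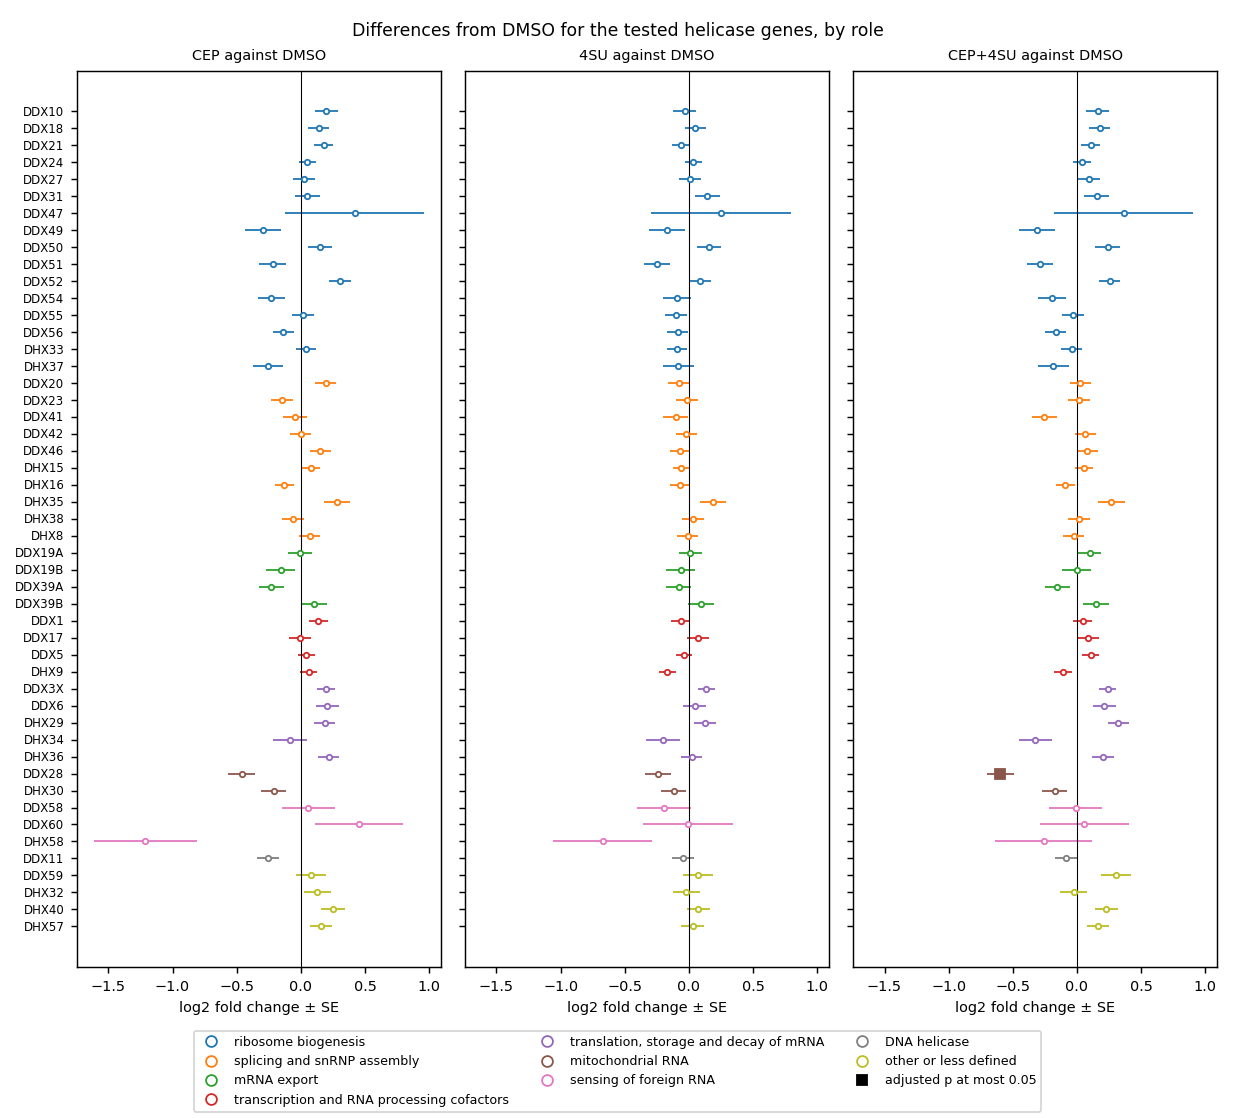
Log2 fold change with its SE for the 49 tested members in 3 comparisons that share the DMSO libraries, ordered and coloured by role. DDX28 in CEP+4SU is the only filled square, at -0.60, and the wide bars belong to DHX58, DDX60, DDX58 and DDX47, the members with the fewest counts.

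The direction of the members followed the base composition of their transcripts. Transcript GC content ranged from 38.4% for DHX36 to 62.9% for DHX34, with a median of 48.7%, close to the 49.3% of all genes tested. With CEP averaged over 4SU, Pearson's r between GC content and log2 fold change was -0.87 over the 49 members (Spearman's rho -0.90), and -0.47 over 17718 genes. These points are genes of the same 12 libraries and so are not independent. None of the 24 members below the median GC content was lower, and 16 of the 25 at or above it were, with medians of 0.15 and -0.07. The members at the lower end were DDX28 at -0.41 and DHX58 at -0.40, with 58.4% and 58.0% GC. At the upper end were DDX47, DDX60 and DDX52, with 43.8%, 38.6% and 39.7%.

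The pattern differed between the libraries of a group. Relative to the DMSO mean, the median of the low-GC members minus that of the high-GC members was 0.39 in CEP replicate 2, 0.35 in CEP+4SU replicate 2 and 0.30 in CEP replicate 3. It was 0.11 in CEP replicate 1, 0.07 in CEP+4SU replicate 1 and 0.17 in CEP+4SU replicate 3. The 4SU libraries had -0.05, 0.18 and 0.11, and the DMSO libraries -0.01 to 0.02. Without the 2 libraries that stood apart, r over the members was -0.65 with CEP averaged over 4SU.

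Removing the trend with GC content over all genes left r at -0.24, and the number of members at an unadjusted p under 0.05 with CEP averaged over 4SU went from 20 (40.8%) to 2 (4.08%). The share of all tested genes went from 24.3% to 9.74% in the same step. DDX52, at 0.23 before, was then at 0.08, and DHX36, at 0.20 before, at 0.04. The members that stood furthest from 0 after this step were DDX28 at -0.28 and DHX58 at -0.25. The trend was fitted to these same libraries and taken out whatever its source, so the smaller r and count are no test of a cause. The part of GC content in the differences was not tested.

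Genes outside the symbol rule give the surroundings of the family. Of 19 tested RNA helicases with other symbols, 1 passed in CEP+4SU against DMSO, where 1.64% of all genes did. This was EIF4A2, which rose by 0.34 (SE 0.085, adjusted p = 0.0492 by edgeR), from 193, 198 and 189 CPM to 230, 281 and 226 CPM. Without the 2 libraries that stood apart it was at 0.24 and did not pass (adjusted p = 0.115 by edgeR). EIF4A3 was at -0.16 and EIF4A1 at -0.11, and neither passed.

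Of 33 tested partners of the helicases, 2 passed in the same comparison, where 1.64% of all genes did. Both fell, and both belong to the SMN complex in which DDX20 works. GEMIN4 went from 162, 154 and 157 CPM to 134, 116 and 129 CPM, at -0.32 (SE 0.081, adjusted p = 0.0492 by edgeR), and did not pass without the 2 libraries (adjusted p = 0.0992). SMN1 went from 50.5, 41.2 and 62.1 CPM to 27.0, 35.5 and 24.8 CPM, at -0.82 (SE 0.19, adjusted p = 0.0425 by edgeR), and also fell with CEP averaged over 4SU, by 0.76 (adjusted p = 0.0171 by edgeR). In CEP alone its log2 fold change was -0.29 (adjusted p = 0.406 by edgeR), with overlap with DMSO. In 4SU alone it had 94.3, 56.1 and 54.1 CPM, at 0.41 against DMSO (adjusted p = 0.762 by edgeR), with replicate 1 far above the other two. Without that library the averaged value was -0.62 (adjusted p = 0.0359 by edgeR). Both calls of SMN1 held without the 2 libraries that stood apart. It has a near-identical copy, SMN2, so its counts are uncertain. DDX20 itself had a log2 fold change of 0.03 there.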

How the data were processed

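RNA-Seq of 12 HEK293T libraries was analysed, in 4 groups taken from the treatment labels. The counts as deposited by the authors are whole reads per gene, made with HISAT2 2.0.5 on GRCh38 and featureCounts 1.5.0-p3 per the labels; the deposited FPKM values were made from them by the authors by gene length and depth. Depth was 16569114 to 24644734 counts. Genes were filtered with filterByExpr (minimum count 10, minimum total 15; 17729 kept), scaled by TMM and fitted over all 12 libraries with edgeR 4.0.16 (quasi-likelihood, R 4.3.3) in 6 comparisons, each adjusted by Benjamini-Hochberg over all genes at 0.05. CPM uses TMM sizes, and SE is the log2 fold change over the root of F. DESeq2 1.42.0, limma 3.58.1 on log2(FPKM + 1), other scalings and filters, removal of trends with GC content or length (lowess, span 0.3), a replicate block and left-out libraries were alternatives. Scripts were tested on simulated data. Members and lists were chosen with earlier results of these data known. Named are DDX3X, DDX17, DDX19B and paralogs, members past the threshold, the 5 lowest p-values per comparison, the 5 highest and lowest levels and the untested members; others named after their values were seen are ends of a role or of the GC range. The authors' comparison columns were not used. Replicate numbers were not used to pair libraries in the reported fit. Of 18 same-number correlations 1 exceeded 0.1, while 8 of 12 libraries correlated best with libraries of their own number. Whether a number stands for a shared batch was not tested.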

Additional observations from a re-analysis of the deposited data

Results flagged for a closer look

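DHX58, the LGP2 gene, moved in opposite directions under 4SU with and without CEP. The 4SU libraries, at 1.22, 0.884 and 1.04 CPM, were all below the DMSO libraries, at 1.76, 1.53 and 1.74 CPM, while the CEP+4SU libraries, at 0.913, 1.97 and 1.31 CPM, were all above the CEP libraries, at 0.479, 0.825 and 0.854 CPM. The interaction was 1.63 on the log2 scale (SE 0.56, unadjusted p = 0.00935, adjusted p = 1.00 by edgeR) and did not pass. It rests on 9 to 42 counts a library, and its adjusted p over the alternatives ran from 0.783 to 1.00.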

How the results depend on the processing

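The number of members past the threshold was 0 in CEP against DMSO, and it was 2 by DESeq2 and with the replicate block, 1 without a filter on low counts, and 0 to 6 with 1 library left out, the 6 arising without CEP replicate 1. In CEP+4SU against DMSO it was 1, and it was 4 by DESeq2 and without a filter on low counts, 3 with scaling to the library total alone, 2 with at least 10 counts in every library, with robust dispersion, with the length trend removed and with only the 6 libraries compared, and 6 with the replicate block; leaving out 1 library gave 0 to 3, the 3 without CEP+4SU replicate 1. With CEP averaged over 4SU it was 1, and it was 9 by DESeq2, 4 without a filter, 11 with the replicate block, 0 with the length or the GC trend removed, and 0 to 11 with 1 library left out, with 11 without CEP replicate 1 and 5 without CEP+4SU replicate 1. With 4SU averaged over CEP it was 0, and 1 by DESeq2 and with the GC trend removed. It was 0 under every alternative in 4SU against DMSO and in the interaction. The number of all genes past the threshold moved as well, and is given with its share of the genes that had an adjusted p. In CEP against DMSO it was 10 (0.0564%), and 253 (2.63%) by DESeq2. It was 662 (1.86%) without a filter, 780 (4.40%) with the replicate block and 1214 (6.61%) without CEP replicate 1. In CEP+4SU against DMSO it was 290 (1.64%), and 1164 (10.6%) by DESeq2, 1234 (3.46%) without a filter and 1667 (9.40%) with the replicate block. It was 812 (4.42%) without CEP+4SU replicate 1. The share was 1.95% with scaling to the library total alone and 2.27% with at least 10 counts in every library. It was 1.85% with robust dispersion, 1.96% with the length trend removed and 3.36% with only the 6 libraries compared. With CEP averaged over 4SU it was 49, and 1499, 1448 and 2269 by the same 3, 2171 without CEP replicate 1 and 1131 without CEP+4SU replicate 1. The cause of these differences was not tested.

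Near 0, the sign of single members changed. DDX5 was at -0.052 in CEP against DMSO with the GC trend removed and DDX19A at 0.012, and with 1 library left out DDX17 ran from -0.12 to 0.071, DDX19A from -0.050 to 0.056 and DDX5 from 0.029 to 0.064. In 4SU against DMSO, DDX5 was at 0.017 with the library total alone and ran from -0.062 to 0.012 with 1 library left out, DDX19A from -0.029 to 0.079 and DDX19B from -0.15 to 0.035. In CEP+4SU against DMSO, DDX19B was at 0.030 with the library total alone, 0.012 with the length trend removed and 0.024 with the GC trend removed, and ran from -0.040 to 0.023 with 1 library left out. DDX28 kept its direction in all alternatives of the 5 comparisons in which it is given.

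The block on replicate numbers is shown although the labels tie no day or batch to a number; 8 of 12 libraries correlated best with libraries of their own number, and same-number correlations of deviations ran from -0.05 to 0.14. Depth limits DHX58, DDX60, DDX58 and DDX47, whose fold changes have the largest SEs. The alternatives for EIF4A2, GEMIN4 and SMN1 were chosen after seeing the data, and these genes passed in 9, 9 and 11 of 19 in CEP+4SU against DMSO.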
